A study of Mus musculus with 12 samples.

Results

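The genes described here are 8 regulators of transcription that mark glutamatergic neurons of the cortex and the amygdala, or of neighbouring forebrain: Emx1, Neurod1, Neurod2, Neurod6, Tbr1, Fezf2, Lmo3 and Bcl11b. They were chosen by name, and all 8 were found among the 54429 entries of the deposited count tables. The series holds 12 total-RNA libraries made from brain punches (strain C57BL/6), 3 in each of 4 groups: isolated and group-housed mice, each for punches labelled BLA and punches labelled VTA. The design text gives the BLA libraries as male and the VTA libraries as female, so region and sex change together. The treatment label reads "Early social isolated" in one arm and "Group housed" in the other. No label gives the ages or the length of isolation, or ties libraries to animals, so a p-value here reflects the scatter among the libraries and that scatter may be technical.

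As background, these proteins act in sequence and in combination as glutamatergic neurons of the telencephalon form and mature. Emx1 is a homeobox factor of dorsal telencephalic progenitors and of the neurons they produce. Neurod1, Neurod2 and Neurod6 are basic helix-loop-helix factors that bind E-box DNA together with E-proteins and drive or maintain neuronal differentiation. Tbr1 is a T-box factor of early-born cortical and of amygdalar projection neurons. Fezf2 and Bcl11b (also called Ctip2) are zinc-finger factors of neurons that project out of the cortex, and Bcl11b is also abundant in the spiny projection neurons of the striatum. Lmo3 is a LIM-only protein that joins other factors and the LIM-binding cofactors without binding DNA itself. In mature midbrain, where dopamine neurons lie, genes such as Emx1 and Tbr1 are known as markers of tissue from elsewhere in the brain.

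In the mm10 build (GENCODE M21) the genes on the plus strand are Emx1 at chr6:85187438-85204462 and Tbr1 at chr2:61802930-61814114. Those on the minus strand are Neurod1 at chr2:79452521-79456751, Neurod2 at chr11:98325415-98329648, Neurod6 at chr6:55677822-55681263, Fezf2 at chr14:12342094-12348189, Lmo3 at chr6:138362918-138581968 and Bcl11b at chr12:107910403-108003602. All 8 are protein-coding.

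The start regions of the genes were searched for the binding words of their own families, as a description. All 8 genes were highest in the same VTA library and 7 of them lowest in the same BLA library. What lies behind these patterns was not tested by the search. The search covered both strands of the 250 bases before the RefSeq start (GRCm38.p6) for the E-boxes CAGATG and CAGCTG, the T-box word AGGTGTGA and the homeobox word TAATTA. No match overlapped another, and CAGCTG and TAATTA read the same on both strands. Shown are the 3 windows that had at most 3 bases inside annotated exons, in lower case with any such word in capitals. They lie on the minus strand at chr11:98329646-98329895 for Neurod2, chr6:138581969-138582218 for Lmo3 and chr6:55681264-55681513 for Neurod6.
Neurod2: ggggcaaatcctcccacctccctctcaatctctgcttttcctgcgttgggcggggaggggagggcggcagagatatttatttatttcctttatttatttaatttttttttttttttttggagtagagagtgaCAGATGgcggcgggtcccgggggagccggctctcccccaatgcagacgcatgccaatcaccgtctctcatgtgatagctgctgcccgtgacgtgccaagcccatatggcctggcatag
Lmo3: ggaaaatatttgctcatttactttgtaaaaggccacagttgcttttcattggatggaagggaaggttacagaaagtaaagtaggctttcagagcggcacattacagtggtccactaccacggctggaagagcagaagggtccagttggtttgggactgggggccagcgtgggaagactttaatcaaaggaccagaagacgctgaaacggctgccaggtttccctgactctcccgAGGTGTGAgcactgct
Neurod6: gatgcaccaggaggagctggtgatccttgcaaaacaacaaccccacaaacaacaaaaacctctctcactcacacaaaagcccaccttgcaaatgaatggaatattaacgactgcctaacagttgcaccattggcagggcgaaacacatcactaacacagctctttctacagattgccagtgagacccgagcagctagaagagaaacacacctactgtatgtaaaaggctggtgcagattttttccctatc
Neurod2 held CAGATG with its first base 118 bases before the start, a word found in 14.4% of 32851 RefSeq promoters. Lmo3 held AGGTGTGA at 16 bases before the start, against 1.12% of all promoters. Neurod6 held none of the 4 words. Among the other 5 windows, which overlap annotated exons more widely, only that of Tbr1 held a word, TAATTA, at 33 and 18 bases before the start (4.84% of all promoters). CAGCTG was in none of the 8 windows and in 13.0% of all promoters. The members thus share no single word in this stretch, and a match is a description of the letters, not a site.

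Total counts per library ranged from 28278708 to 69276892. Slc6a3, the dopamine transporter, lay at 229.5 to 525.5 CPM in the VTA libraries and at 1.09 CPM or less in the BLA libraries, where CPM (counts per unit of library size) carries TMM factors over all 12 libraries. Slc17a7, the vesicular transporter of cortical and amygdalar glutamatergic neurons, lay at 448.3 CPM or more in BLA. In 3 BLA libraries, reads at ribosomal RNA loci made up 18.6% (isolated 3), 28.6% (group-housed 1) and 41.8% (group-housed 2) of the counts, against 1.57% or less in the other 9. Isolated VTA library 3 stood apart by markers of choroid plexus, the tissue that secretes cerebrospinal fluid. The summed level of 12 such markers was 3542 CPM there and 281 CPM in isolated VTA library 1. It was 48.2 CPM in isolated VTA library 2 and 41.2 to 61.8 CPM in the group-housed VTA libraries. All 8 genes passed the filter on low counts in each region. By GENCODE M21, 13.0% of the exon bases of Neurod1 are shared with Cerkl on the same strand and with Gm26755 on the other, so its counts are uncertain, and the other 7 genes share none.

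In group-housed mice all 8 genes were more abundant in BLA than in VTA, by factors from 3.15 to 139.8. Emx1 averaged 8.09 ± 0.760 CPM (SD, n = 3) in group-housed BLA and 0.0579 ± 0.0762 CPM in group-housed VTA, a ratio of 139.8. Tbr1 averaged 60.1 ± 22.6 CPM and 0.514 CPM, a ratio of 116.9. These 2 genes were close to absent from group-housed VTA.

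Between these extremes, Neurod2 had a BLA to VTA ratio of 26, Bcl11b 17.5, Fezf2 9.93, Neurod6 9.44 and Lmo3 8.76. Neurod1 had the smallest ratio, 3.15, with 7.76 ± 2.38 CPM in group-housed BLA and 2.47 ± 0.334 CPM in group-housed VTA. Over all 12 libraries, every BLA library was above every VTA library for 6 of the 8 genes. The exceptions were Neurod1 and Fezf2. For Neurod1 the lowest BLA library (isolated 1, 2.15 CPM) lay below all VTA libraries (2.18 to 3.09 CPM). For Fezf2 the highest VTA library (isolated 3, 8.24 CPM) exceeded the lowest BLA library (isolated 1, 5.23 CPM). The genes are known markers of these regions, so the ratios are a description and were not tested. The Emx1 ratio rests on few counts: its 3 group-housed VTA libraries held 2, 0 and 12 counts, and 0 counts in library 2 allow up to 0.0509 CPM (3 counts, counting error only). Without group-housed VTA library 3 its log2 ratio was 9.10. With CPM that carry no TMM factors the log2 ratio of Neurod1 was 0.98, and all 8 genes remained higher in BLA.

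**Figure D1:**
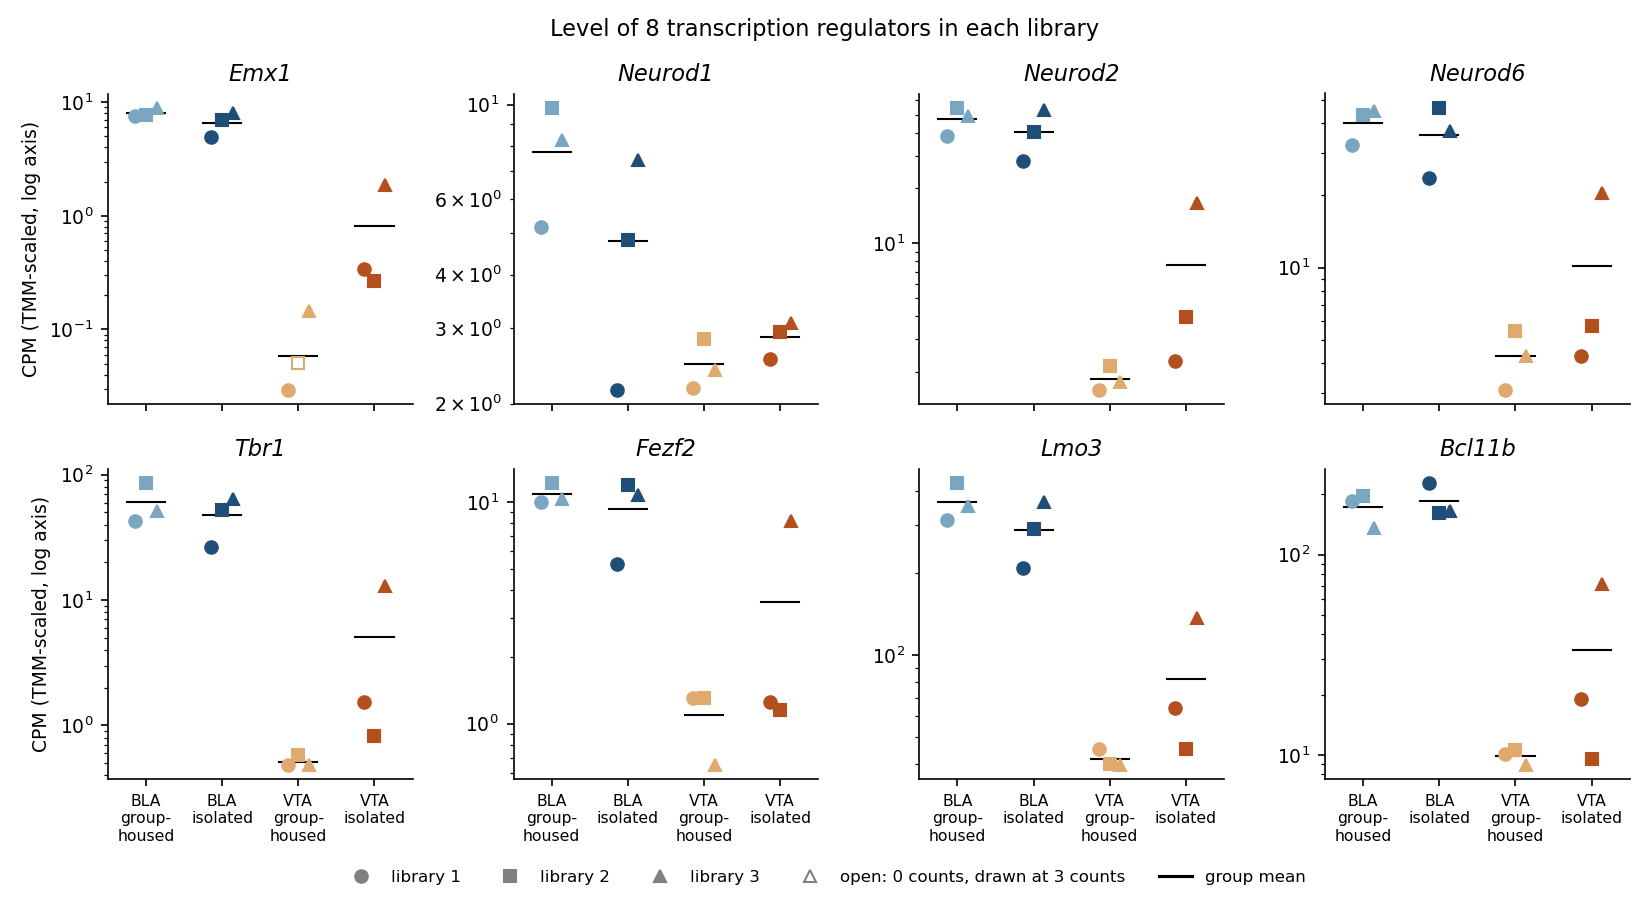
Level of each gene in TMM-scaled CPM on a log axis for the 12 libraries, by group, with the group mean as a line and the library number as the symbol. The open symbol for Emx1 marks a library with 0 counts, drawn at the level of 3 counts. Isolated VTA library 3 is the highest VTA library in all 8 panels, and isolated BLA library 1 is the lowest BLA library in all panels but that of Bcl11b, where it is the highest.

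To compare genes with each other, levels were divided by exon length. In group-housed BLA, Lmo3 led at 71.0 ± 11.4 CPM per kilobase (SD, n = 3). A second tier followed in which neighbours overlapped: Bcl11b at 21.3, Neurod6 at 18.7, Neurod2 at 15.1 and Tbr1 at 11 CPM per kilobase. The lowest tier, also with overlapping neighbours, held Emx1 at 3.70, Fezf2 at 3.55 and Neurod1 at 2.84 CPM per kilobase. Only the steps from Lmo3 to Bcl11b and from Tbr1 to Emx1 were free of overlap between libraries.

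The order in group-housed VTA differed, and there no neighbours overlapped. Lmo3 again led, at 8.11 CPM per kilobase, followed by Neurod6 at 1.98, Bcl11b at 1.21, Neurod1 at 0.904, Neurod2 at 0.582, Fezf2 at 0.357, Tbr1 at 0.0938 and Emx1 at 0.0265. Neurod1 stood last in group-housed BLA but above Neurod2, Fezf2, Tbr1 and Emx1 in group-housed VTA. In isolated VTA every pair of neighbours in the order overlapped, with isolated library 3 highest for each gene. That library lay at 26.6 CPM per kilobase for Lmo3, 9.50 for Neurod6 and 8.83 for Bcl11b.

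In BLA no gene passed the test between isolated and group-housed libraries, and 7 of the 8 genes had fitted values below 0. The median log2 fold change, isolated over group-housed, was -0.27, against 0.00 for all genes tested. No gene of the 8 had groups that did not overlap (background 6.99%: 4.3% with isolated higher and 2.69% with isolated lower) or an unadjusted p under 0.05 (background 1.99%). Genes with a value above 0 made up 50.8% of the background and 1 of the 8, Bcl11b. With edgeR (quasi-likelihood, Benjamini-Hochberg) 0 of 22110 genes were called (0%), 439 had an unadjusted p under 0.05, and DESeq2 called 6, none of them among the 8. The 8 genes share libraries and are not independent of each other, so their common direction is not counted as separate evidence.

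The NeuroD factors illustrate how the BLA libraries were spread. Neurod1 lay at 5.16, 9.84 and 8.28 CPM in group-housed BLA libraries 1 to 3 and at 2.15, 4.83 and 7.43 CPM in isolated libraries 1 to 3. Its log2 fold change of -0.70 (SE 0.44) was the lowest of the 8 (unadjusted p = 0.158, adjusted p = 1.00, edgeR). The groups overlapped, and isolated library 1 was the lowest of the 6.

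Neurod2 lay at 38.5, 54.8 and 49.3 CPM in group-housed BLA and at 28.0, 40.5 and 53.0 CPM in isolated BLA (log2 -0.24, SE 0.23). Neurod6 lay at 32.5, 43.2 and 45.0 CPM against 23.6, 46.5 and 37.0 CPM (log2 -0.18, SE 0.24). For both genes isolated library 1 was again the lowest of the 6, and the other 2 isolated libraries fell inside the group-housed range or, for Neurod6 in library 2, just above it.

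Emx1, the dorsal progenitor factor, lay at 7.55, 7.75 and 8.96 CPM in group-housed BLA and at 4.91, 6.93 and 8.01 CPM in isolated BLA (log2 -0.30, SE 0.19, unadjusted p = 0.142). Tbr1 lay at 43.1, 85.8 and 51.5 CPM against 26.7, 52.5 and 64.5 CPM (log2 -0.33, SE 0.42). The groups of both overlapped, and group-housed library 2 was far above the other 2 for Tbr1.

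Fezf2 lay at 9.94, 12.2 and 10.3 CPM in group-housed BLA and at 5.23, 11.9 and 10.8 CPM in isolated BLA (log2 -0.22, SE 0.27). Lmo3, the most abundant of the 8, lay at 312.5, 428.0 and 353.5 CPM against 208.7, 291.5 and 366.0 CPM. Its log2 fold change was -0.34 (SE 0.20) with the smallest unadjusted p of the 8 (0.124; adjusted p = 1.00, edgeR). In both genes the low isolated value came from library 1, and 2 of the 3 isolated libraries of Lmo3 lay below its group-housed range.

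Bcl11b went the other way across the same libraries. It lay at 185.3, 197.0 and 135.6 CPM in group-housed BLA and at 227.5, 161.1 and 165.6 CPM in isolated BLA (log2 0.10, SE 0.17, unadjusted p = 0.597). Isolated library 1, the lowest of the 6 for the other 7 genes, was the highest for Bcl11b. The count ratio of Bcl11b to Tbr1 was 8.52 in that library and 2.30 to 4.30 in the other 5 BLA libraries, and the ratio to Fezf2 was 43.5 against 13.1 to 18.6.

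Markers of striatal projection neurons, which also express Bcl11b, had their highest and lowest sums in the same BLA libraries as Bcl11b. Their summed level over 15 genes was 4186, 2254 and 1636 CPM in isolated BLA libraries 1 to 3 and 2848, 2182 and 1260 CPM in group-housed libraries 1 to 3. Isolated library 1 held 199.6% of the group-housed mean and group-housed library 3, the lowest for Bcl11b, held the lowest sum. Between these the order differed. Isolated library 2 was above group-housed library 2 in the striatal sum but below it for Bcl11b (161.1 against 197.0 CPM). Effector genes of telencephalic glutamatergic neurons (12 genes, among them Slc17a7 and Camk2a) summed to 80.5% of the group-housed mean in isolated library 1, and the 8 regulators to 74.0%. In that library the 12 effector genes ranged from 36.8% for Nrn1 to 151.8% for Hpca, the only gene of the 12 above the group-housed mean. Oligodendrocyte markers summed to 150.1% there. The part of these shifts in the BLA result was not tested. In bulk punches, fewer cells of a type and less RNA per cell cannot be told apart.

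**Figure D2:**
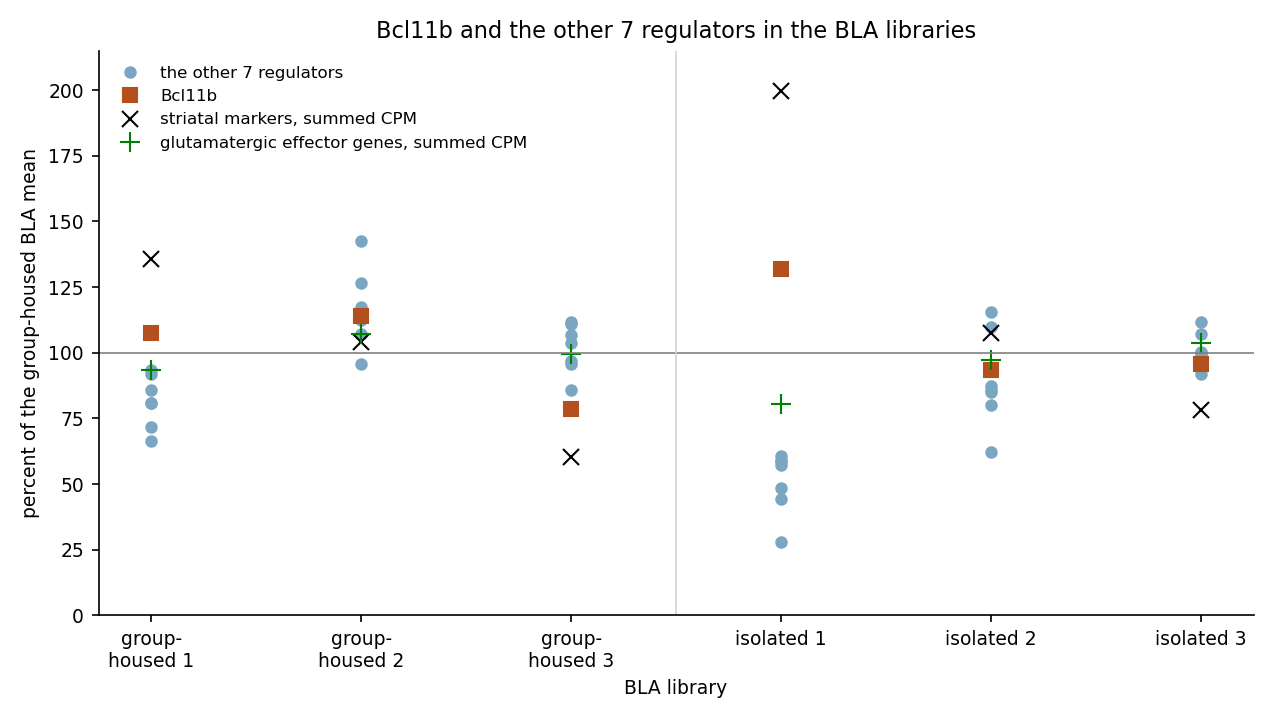
Level of Bcl11b (squares), of the other 7 genes (circles), of 15 summed striatal markers (crosses) and of 12 summed glutamatergic effector genes (plus signs) in each BLA library, as a percentage of the group-housed BLA mean. In isolated library 1 the striatal sum stands at 199.6% and the effector sum at 80.5%, with Bcl11b above 100% and the other 7 genes below it.

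Without isolated BLA library 1 the contrast shrank. The log2 fold change of Neurod1 became -0.34 and that of Lmo3 -0.16, while Neurod2 and Tbr1 came to -0.03 and -0.04. Neurod6 (0.05) and Fezf2 (0.07) turned above 0 and Bcl11b (-0.08) below it. The median of the striatal list, 0.42 over 15 of 15 genes with values above 0, became -0.12.

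In VTA all 8 genes had fitted values above 0 in isolated mice, with a median log2 fold change of 1.66 against 0.00 for all genes tested, and none passed the test. Values above 0 made up 49.8% of the background. The groups did not overlap, with isolated higher, for 3 of the 8 genes (Emx1, Tbr1 and Neurod2; background 18.9%), and for none with isolated lower (background 11.1%, or 30% in either direction). The same 3 had an unadjusted p under 0.05 (background 18.3%). Emx1 held 15, 21 and 111 counts in isolated VTA libraries 1 to 3 and 2, 0 and 12 in the group-housed ones. Emx1 passed the low-count filter through the isolated libraries, so its lack of overlap is not separate from the filter. At an adjusted p under 0.05, edgeR called 1 of 24082 genes (0.00415%), Postn, which is no member of the list and is named because it is the single call. Isolated library 3 was the highest of the 6 VTA libraries for each of the 8 genes.

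Emx1 showed the largest fold. Group-housed VTA libraries 1 to 3 held 0.0294, 0 and 0.144 CPM and isolated libraries 1 to 3 held 0.340, 0.264 and 1.85 CPM, from 15, 21 and 111 counts. Its log2 fold change was 3.59 (SE 1.12, unadjusted p = 0.0149, adjusted p = 0.236, edgeR). The 95% exact Poisson interval of isolated library 3, 1.53 to 2.23 CPM, lay above those of the other 5 libraries. The intervals of isolated library 1 (0.190 to 0.560 CPM) and library 2 (0.164 to 0.404 CPM) overlapped that of group-housed library 3 (0.0745 to 0.252 CPM), and they cover counting error only. Counts of 2 were more common than counts of 1 (medians of 2367 and 1085 genes per library), so single counts may not be independent. The intervals, and the level of 3 counts used for libraries with 0 counts, assume that they are and may be too narrow. DESeq2 called Emx1 (log2 3.71, adjusted p = 0.0233), and over the other tools, settings and omitted libraries its adjusted p ran from 0.0783 to 0.986.

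Tbr1 lay at 0.486, 0.577 and 0.480 CPM in group-housed VTA and at 1.54, 0.818 and 12.9 CPM in isolated VTA. The log2 fold change was 3.23 (SE 1.17, unadjusted p = 0.0375, adjusted p = 0.261, edgeR). All 3 isolated libraries were above the group-housed range, library 3 by far, at 25 times the group-housed mean.

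Neurod2 lay at 1.59, 2.14 and 1.75 CPM in group-housed VTA and at 2.29, 3.98 and 16.6 CPM in isolated VTA (log2 2.0, SE 0.77, unadjusted p = 0.0435, adjusted p = 0.267, edgeR). Here library 2 was above library 1, the reverse of Tbr1 and Emx1. Neurod6 lay at 3.09, 5.43 and 4.26 CPM against 4.26, 5.69 and 20.4 CPM (log2 1.19, SE 0.65). Only library 3 of the isolated group departed clearly from the group-housed libraries for Neurod6.

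Neurod1 had the smallest value of the 8. It lay at 2.18, 2.83 and 2.39 CPM in group-housed VTA and at 2.54, 2.95 and 3.09 CPM in isolated VTA (log2 0.15, SE 0.20, adjusted p = 0.692, edgeR). Isolated library 3 was only 1.25 times the group-housed mean for Neurod1, against 9.09 times for Neurod2 and 4.79 times for Neurod6.

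Fezf2 lay at 1.31, 1.31 and 0.649 CPM in group-housed VTA and at 1.25, 1.15 and 8.24 CPM in isolated VTA (log2 1.64, SE 0.87). Bcl11b lay at 10.1, 10.6 and 8.86 CPM against 18.9, 9.58 and 71.6 CPM (log2 1.69, SE 0.81). Isolated libraries 1 and 2 were inside the group-housed range for Fezf2, while library 1 was above it for Bcl11b.

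Lmo3 lay at 45.4, 40.0 and 39.5 CPM in group-housed VTA and at 64.0, 45.3 and 136.7 CPM in isolated VTA (log2 0.91, SE 0.43, unadjusted p = 0.0834, adjusted p = 0.319, edgeR). Libraries 1 and 3 were above the group-housed range and library 2 was at its upper edge.

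**Figure D3:**
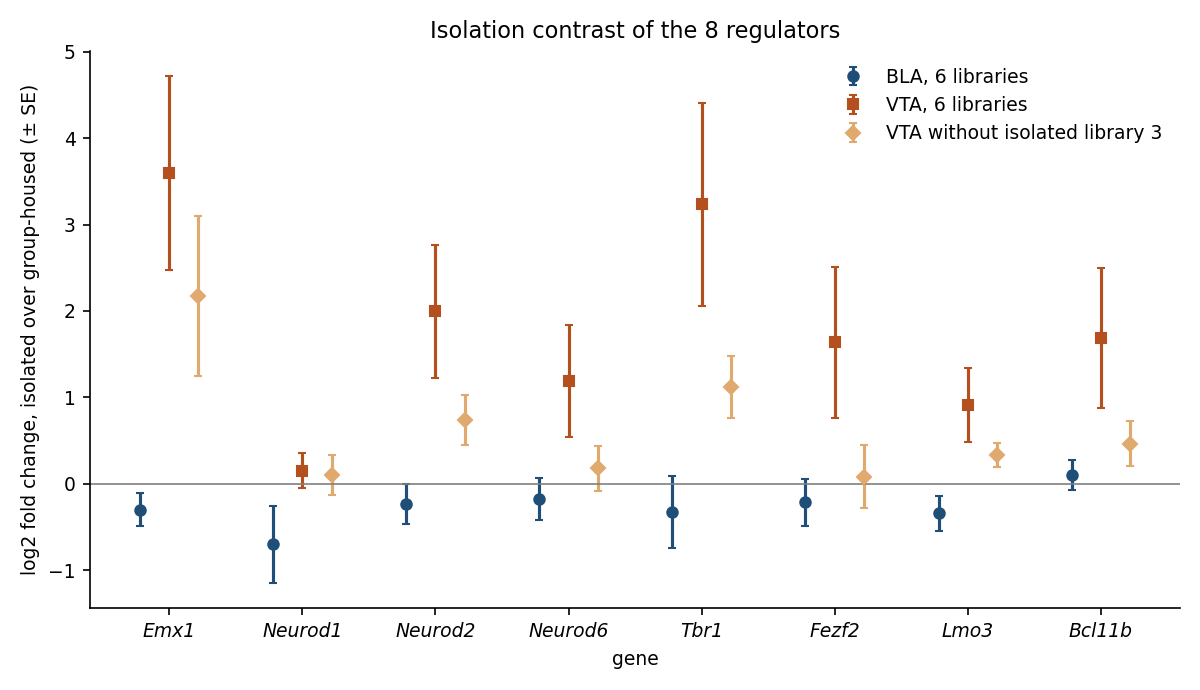
Log2 fold change of isolated over group-housed mice for each gene, with its standard error as bars, in BLA (circles), in VTA (squares) and in VTA without isolated library 3 (diamonds). The VTA values run from 0.15 for Neurod1 to 3.59 for Emx1, and all 8 stand closer to 0 without library 3, that of Neurod1 by the least.

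Without isolated VTA library 3, all 8 values stayed above 0 and most were far smaller. The log2 fold change was 2.17 for Emx1 (unadjusted p = 0.0442, adjusted p = 0.396, edgeR), 1.12 for Tbr1 (SE 0.36, adjusted p = 0.386) and 0.74 for Neurod2 (SE 0.29, adjusted p = 0.386). It was 0.47 for Bcl11b, 0.33 for Lmo3, 0.18 for Neurod6, 0.10 for Neurod1 and 0.08 for Fezf2. With isolated library 1 left out as well, a single isolated library remained, whose spread is assumed to be that of the group-housed libraries. Neurod2 then had a log2 fold change of 1.08 (unadjusted p = 0.00340, adjusted p = 0.986, edgeR), Emx1 2.03 and Tbr1 0.63, while Bcl11b came to -0.08.

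Library 3 was not the only isolated VTA library above the group-housed range. Library 1 was above it for 5 genes (Emx1, Neurod2, Tbr1, Lmo3 and Bcl11b) and library 2 for 5 (Emx1, Neurod1, Neurod2, Neurod6 and Tbr1). In library 2, Neurod1 (2.95 against at most 2.83 CPM) and Neurod6 (5.69 against at most 5.43 CPM) were only just above it. The remaining values of libraries 1 and 2 lay within the range. The share of all genes above the range in a single library was not computed, so these counts have no background. In library 2 the choroid plexus sum (48.2 CPM) and the striatal sum (393.0 CPM, against 382.0 to 409.1 CPM) were inside the group-housed VTA range. Single choroid plexus markers departed from it in both directions there. Ttr was above (2.73 against 0.255 to 0.901 CPM) and Kl below (5.06 against 6.19 to 9.15 CPM). Whether library 2 held other tissue was not tested. The effector sum, 737.0 CPM, was above its group-housed range of 586.6 to 642.6 CPM in library 2, as it was in library 1 (856.2 CPM) and library 3 (2170 CPM).

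Set against BLA, isolated VTA library 3 held an uneven share of the 8 genes. Its level was 76.2% of the group-housed BLA mean for Fezf2, 50.8% for Neurod6 and 41.5% for Bcl11b. It was 39.8% for Neurod1, 37.5% for Lmo3 and 34.9% for Neurod2. The lowest shares were those of Emx1, 22.9%, and Tbr1, 21.4%. When the group-housed VTA mean was first subtracted, the share ran from 8.03% for Neurod1 and 20.6% for Tbr1 to 66.1% for Fezf2. The 8 genes summed to 38.1% of the group-housed BLA sum and the 12 effector genes to 39.9%.

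**Figure D4:**
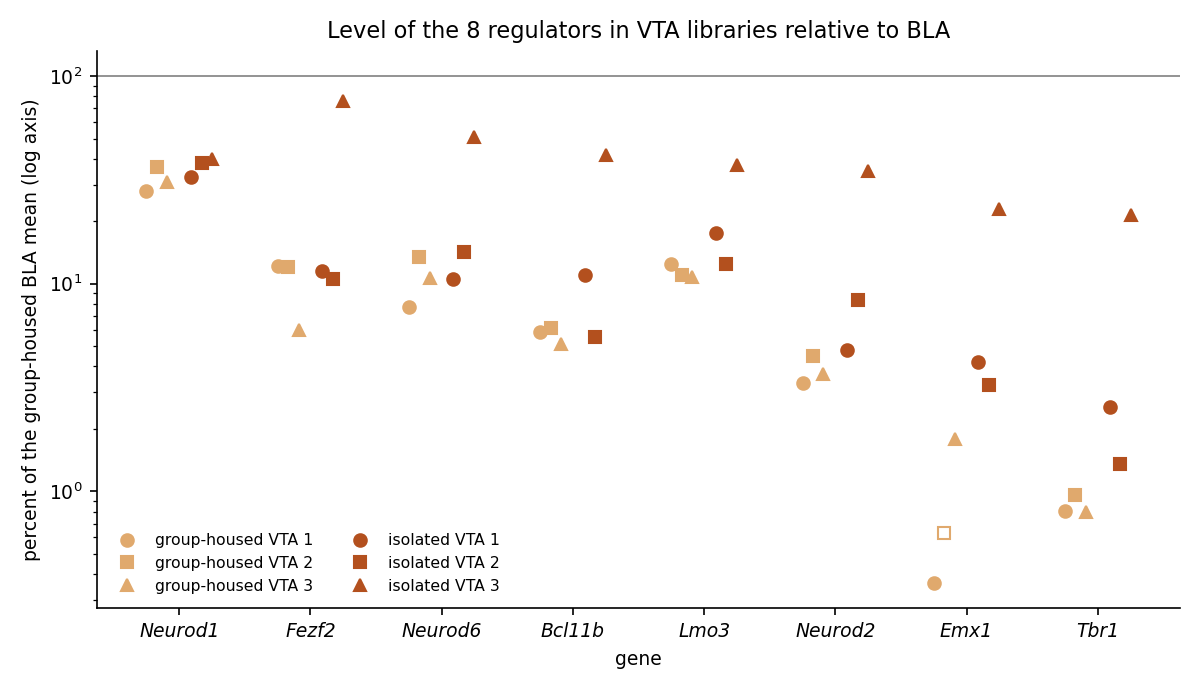
Level of each gene in the 6 VTA libraries as a percentage of the group-housed BLA mean, on a log axis. The open symbol marks a library with 0 counts of Emx1, drawn at 3 counts. Isolated library 3 lies between 21.4% (Tbr1) and 76.2% (Fezf2), above all other VTA libraries for each gene, narrowly so for Neurod1.

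Ratios of counts between genes, which do not depend on library scaling, were compared for 7 pairs. Fezf2 to Tbr1 was 0.142 to 0.231 in BLA, 1.35 to 2.70 in group-housed VTA and 0.639 in isolated VTA library 3. Neurod6 to Neurod2 was 0.697 to 1.15 in BLA, 1.94 to 2.54 in group-housed VTA and 1.23 in that library. Library 3 lay between the group-housed VTA and the BLA ranges in both ratios. So did isolated VTA library 1 (0.809 and 1.86) and, for Neurod6 to Neurod2, library 2 (1.43), while the Fezf2 to Tbr1 ratio of library 2 (1.40) lay inside the group-housed VTA range.

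Neurod1 to Neurod2 was 0.0768 to 0.179 in BLA, 1.33 to 1.37 in group-housed VTA and 0.186 in isolated VTA library 3, just above the BLA range. Bcl11b to Tbr1 was 2.30 to 8.52 in BLA, 18.4 to 20.7 in group-housed VTA and 5.56 in isolated VTA library 3, which fell inside the BLA range. Isolated VTA libraries 1 and 2 lay at 12.3 and 11.7 for that ratio, between the regions. Lmo3 to Tbr1 was 4.99 to 7.81 in BLA, 69.4 to 93.4 in group-housed VTA and 10.6 in isolated VTA library 3. In the remaining pairs library 3 lay inside the group-housed VTA range. Bcl11b to Fezf2 was 8.70 there against 7.69 to 13.7, with 13.1 to 43.5 in BLA. Emx1 to Tbr1 was 0.144 against 0 to 0.300, from few counts. That value also lay inside the BLA range of 0.0903 to 0.184.

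The response to isolation was compared between regions as a difference of log2 fold changes, BLA minus VTA, on all 12 libraries. All 8 differences were below 0 (background 55.3%), with a median of -1.80 against -0.06 for all genes tested, and 4 had an unadjusted p under 0.05 (background 14.9%). With edgeR 0 of 25009 genes were called (0%, adjusted p), 3729 had an unadjusted p under 0.05, and DESeq2 called 138, none of them among the 8. The difference was -3.91 for Emx1 (SE 1.16, adjusted p = 0.303) and -3.64 for Tbr1 (SE 1.37, adjusted p = 0.308). It was -2.30 for Neurod2 (SE 0.91, adjusted p = 0.315) and -1.32 for Lmo3 (SE 0.53, adjusted p = 0.318). The other 4 lay between -0.91 (Neurod1) and -1.93 (Fezf2), with adjusted p from 0.392 to 0.413. With the replicate number as a block, the difference of Emx1 was called (-4.12, adjusted p = 0.0145, edgeR). Without isolated VTA library 3 the difference was -2.44 for Emx1, -1.46 for Tbr1, -1.03 for Neurod2 and -0.35 for Fezf2. Sex and region cannot be told apart in this contrast.

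Other regulators of telencephalic glutamatergic neurons, a list of 24 genes, had values mostly on the same side as the 8. In VTA 19 of 23 tested had values above 0, 7 had isolated libraries above the group-housed ones without overlap (background 18.9%), the median was 0.42, and none passed the test. Bhlhe22, another bHLH factor, lay at 7.15, 8.42 and 7.92 CPM in group-housed VTA and at 10.6, 12.6 and 26.6 CPM in isolated VTA libraries 1 to 3 (log2 1.02, SE 0.34, adjusted p = 0.245, edgeR). Its 3 isolated libraries were all above the group-housed range. The log2 fold change was 0.48 (SE 0.16) for Zfpm2 and 0.56 (SE 0.21) for Emx2, the relative of Emx1. Eomes, at most 9 counts in any library, was not tested. Without isolated library 3 the list's median was 0.14. In BLA 17 of 23 had values below 0 (median -0.09), with Lhx2 (-0.24, SE 0.13) and Zbtb18 (-0.21, SE 0.15) having the smallest unadjusted p and Nr2f2 (-0.39, SE 0.39) the lowest value.

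Genes that work with the NeuroD factors or with Lmo3 had list medians between -0.15 and 0.11 over both regions. Of 11 NeuroD relatives, E-protein partners and Id inhibitors, 9 were tested in VTA (6 above 0, median 0.11, none called) and 8 in BLA (5 above 0, median 0.02, none called). The value farthest from 0 was that of Neurog2 in BLA (-1.19, SE 0.95), at 0.708 CPM or less in the BLA libraries. Id2, which binds E-proteins and keeps them from DNA, had a log2 fold change of 0.29 (SE 0.08, adjusted p = 0.236, edgeR) in VTA, with all 3 isolated libraries above the group-housed ones. The E-protein gene Tcf4 had 0.29 (SE 0.14). Of the 5 Lmo relatives and LIM-binding cofactors, all had values above 0 in VTA (median 0.09) and 4 had values below 0 in BLA (median -0.15), with none called. Lmo4, the relative of Lmo3 in cortex, came to 0.57 (SE 0.30) in VTA and -0.32 (SE 0.19) in BLA. Ldb2 in VTA came to 0.63 (SE 0.48), and to 0.00 without isolated library 3.

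Effector genes of the same neurons had values above 0 in VTA for 12 of 12 members (background 49.8%), 6 of them without overlap (background 18.9%), with a median of 1.30 and none called. Slc17a7 lay at 2.87, 5.19 and 3.57 CPM in group-housed VTA and at 23.8, 8.28 and 233.0 CPM in isolated VTA (log2 4.44, SE 1.51, adjusted p = 0.259, edgeR). The isolated libraries stood in the order 3, 1, 2, as for Emx1 and Tbr1. Nrn1 (neuritin, 0.68, SE 0.11) and Hpca (hippocalcin, 0.66, SE 0.16) had narrower spreads. The median was 0.40 without isolated library 3 and 0.22 without libraries 1 and 3. In BLA 10 of 12 effector genes had values below 0, with a median of -0.12.

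Markers of other cells and tissue were read beside these results, and none of their members passed the edgeR test in either region. In VTA the striatal list had 13 of 15 values above 0 (median 0.52), among them Drd1 at 6.20, 5.40 and 3.44 CPM in group-housed and 9.67, 6.82 and 41.2 CPM in isolated libraries. All 12 choroid plexus markers were above 0 (median 2.67, and 0.67 without isolated library 3). Its most abundant gene Ttr, transthyretin, lay at 0.255 to 0.901 CPM in group-housed VTA and at 205.4, 2.73 and 3119 CPM in isolated libraries 1 to 3. No choroid plexus marker was at 0 in any VTA library. The part of these tissues in the VTA result was not tested.

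Oligodendrocyte markers had 9 of 9 values above 0 in VTA (median 0.46) and microglial markers 6 of 6 (median 0.27). GABA neuron markers had 7 of 11 (median 0.06), and their sum was 699.9, 276.1 and 686.1 CPM in isolated libraries 1 to 3 against 469.9 to 597.8 CPM in group-housed ones. Dopamine neuron markers had 7 of 12 (median 0.06), astrocyte markers 3 of 6 (median 0.01), and markers of dentate granule cells, known to be rich in Neurod1, 0 of 5 (median -0.24). Of the anterior pituitary markers, at 6.80 CPM or less in sum, 2 of 4 tested were above 0, both without overlap (background 18.9%), and 2 below. Their sum was 6.62 CPM in group-housed VTA library 1 and 6.80 CPM in isolated library 3. Cga, Pitx1 and Fshb were highest in group-housed library 1, at 2.18, 0.839 and 0.383 CPM. In isolated VTA they lay at 0.0167, 0.0334 and 0.0668 CPM or less. Gh, growth hormone, had 0 counts in the 3 group-housed VTA libraries, which allows up to 0.0509 CPM, and lay at 0.430, 0.302 and 0.819 CPM in isolated libraries 1 to 3 (adjusted p = 0.236 with edgeR and 0.0108 with limma voom, which called it). Prl, prolactin, lay at 0.0480 to 0.0589 CPM against 0.974, 0.617 and 2.69 CPM. Gh and Prl passed the low-count filter through the isolated libraries, so their lack of overlap is not separate from the filter. In BLA, with medians in the same order of lists, oligodendrocyte markers stood at 0.08, microglial at 0.09, GABA at 0.04, dopamine at 0.21, astrocyte at -0.02, dentate at -0.10, pituitary at 0.50 from 1 gene, and choroid plexus at 0.03.

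Likeness between genes was measured as the root mean square difference of log2 CPM over the 12 libraries, each gene centred on its own mean. Among the 28 pairs of the 8 genes, Lmo3 and Neurod6 were the most alike at 0.37, followed by Fezf2 and Neurod6 at 0.38, and Neurod1 and Tbr1 the least at 2.43. Within BLA alone the closest pair was Neurod2 and Lmo3, at 0.08, and Bcl11b stood at 0.48 or more from each of the other 7. These distances describe 12 libraries that share region, sex and library effects.

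Among 16645 other genes with a mean of at least 1 CPM, Bcl11b was closest to Vipr1 (0.19) and Chrm4 (0.20), the latter a muscarinic receptor gene known from striatal neurons. Of the 8 genes Lmo3 had the closest neighbours, Cacng3 at 0.14 and Fam81a at 0.15. Neurod6 was closest to Moxd1 (0.21) and Stum (0.22), Neurod2 to Gm36251 (0.24) and Mas1 (0.26), and Neurod1 to Tox3 (0.22) and Fam19a1 (0.27). Fezf2 was closest to Pter (0.25) and Gda (0.29). The nearest genes of Tbr1, A830036E02Rik (0.39) and Egr3 (0.44), and of Emx1, Krt12 (0.51) and Gm39822 (0.58), were farther away.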

How the data were processed

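The deposited values are raw whole-number read counts per gene, 1 table per library. Per the submitters' processing notes, cutadapt, TopHat2, HTSeq and the mm10 build were used (versions not stated). Per the labels' protocols, Trizol served for extraction and 1 ug of RNA went into a stranded kit that removes ribosomal RNA. How strand and read mates were counted, and with which annotation, is not given in the sources used here. Of 54429 entry names, 98.8% were found in GENCODE M21. The series table differed from the per-library tables at 2 entries, none of them a member, and the per-library tables were used. Libraries of a group all differed by more than sampling noise (lowest chi-square over its degrees of freedom 20.8).

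After filterByExpr (counts of at least 10, totals of at least 15), genes were tested with edgeR 4.0.16 (TMM, robust quasi-likelihood F test, R 4.3.3), within each region on 6 libraries and, for the difference, on all 12. The p-values were adjusted by Benjamini-Hochberg over the whole table and called under 0.05. Standard errors are the log2 value divided by the root of F. The scripts were tested on simulated counts. Alternatives were DESeq2 1.42.0, limma 3.58.1 (voom), other factors, filters and thresholds, a replicate block and left-out libraries.

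The members and lists were chosen with earlier results of these data known. Named are the 8 members, up to 4 genes per list by smallest p, the most abundant genes of marker lists and the 2 genes most like each member. A gene that the rule selects is not reported here. Outside this rule, Slc6a3 is named as a check of labels and Postn, Sim1, Eif2s3y, Eomes, Nr2f2 and Neurog2 were chosen after their values were seen. List medians under the alternatives were added after the data were seen.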

Additional observations from a re-analysis of the deposited data

How the results depend on the processing

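The count of genes called depended on tool and filter. For isolation in BLA, where edgeR called 0 genes, DESeq2 called 6, no low-count filter gave 8, leaving out the 3 libraries rich in ribosomal RNA reads gave 1 (Sim1; group-housed library 3 alone against isolated 1 and 2, its spread assumed to be theirs), and leaving out 1 library at a time gave 0 to 4. For VTA (1 called), DESeq2 gave 486, voom 2 (Postn and Gh), no filter 17, upper-quartile factors 0 and the fit without isolated libraries 1 and 3 gave 0. Leaving out 1 library gave 0 to 1200, the highest without isolated library 2. A single fit of all 12 libraries called 1 other gene, Eif2s3y, which was higher in isolated VTA (log2 1.77, adjusted p = 0.0205, edgeR). What lies behind the calls of Eif2s3y was not tested, and they are not read here as a response to isolation. For the difference (0 called), DESeq2 gave 138. No filter gave 1 and a threshold of 0.1 gave 1, in each case Eif2s3y (-1.73). Leaving out 1 library gave 0 to 487, again the highest without isolated VTA library 2.

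Among the 8 genes, DESeq2 called 1 in VTA, Emx1. The values of all 8 were above 0 in VTA under every alternative except that Bcl11b came to -0.080 without isolated libraries 1 and 3. Leaving out 1 library at a time, VTA values ran from 2.17 to 5.46 for Emx1, 1.12 to 3.75 for Tbr1, 0.74 to 2.43 for Neurod2, 0.47 to 2.13 for Bcl11b, 0.33 to 1.20 for Lmo3, 0.18 to 1.55 for Neurod6, 0.08 to 2.07 for Fezf2 and 0.07 to 0.26 for Neurod1. In BLA, 0 to 2 of the 8 were above 0 when 1 library was left out. The ranges that crossed 0 were -0.41 to 0.051 for Neurod6, -0.44 to 0.073 for Fezf2, -0.61 to 0.015 for Tbr1 (above 0 without group-housed library 2) and -0.084 to 0.20 for Bcl11b (below 0 without isolated library 1 and, at -0.057, without group-housed library 3). Rarb in BLA ran from -0.093 (without isolated library 1) to 0.73, and Ldb2 in VTA from -0.0035 (without isolated library 3) to 0.92, with -0.20 without isolated libraries 1 and 3. The cause of these changes was not tested.

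Whether replicate numbers pair the libraries cannot be decided from 3 libraries per group. Deviations of same-numbered libraries correlated across genes at 0.214, -0.0438 and 0.0140 in BLA and at -0.0598, -0.0189 and -0.0274 in VTA. Not every library correlated best with its own number, though the libraries numbered 1 in BLA did. The striatal, oligodendrocyte and GABA sums fell from library 1 to library 3 in both BLA groups. With the replicate number as a block, VTA had 0 calls and the difference had 1 call, Emx1 (-4.12, adjusted p = 0.0145, edgeR), so that 1 of the 8 was called there. Over its other alternatives the adjusted p of that difference ran from 0.0588 to 0.511. Low counts of Emx1 in VTA limit its precision, and 3 libraries per group limit all tests.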
